A study of Mus musculus with 6 samples.

Results

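The genes described here are Atm, the kinase that starts the cellular response to DNA double strand breaks, and 9 genes that act with it, namely Atr, Nbn, Rad50, Mdc1, Trp53bp1, Rnf8, Rnf168, Chek1 and Chek2. They were chosen by name, with earlier results of these data known. All probe sets that the array's annotation assigns to exactly 1 of these symbols were taken. This gave 24 probe sets out of 45037 on the array without controls (10 of 18193 named genes). A probe set combines several short probes, placed mostly towards a transcript's 3' end, into 1 signal. Of the 24 probe sets, 19 reached a signal of 100 on at least 1 array and were tested, and these cover all 10 genes. The other 5 (1 of Atr, 1 of Rad50 and 3 of Chek1) stayed below 100 on all 6 arrays and are left without a test.

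Irradiated cells received 1 Gy of γ-rays at 0.72 Gy per minute and were collected 2 hours later, and mock-irradiated cells (0 Gy) were handled alongside them without the exposure. Both groups were WT murine pre-B cells transformed with v-abl, carrying an Eμ-Bcl2 transgene (the Eμ enhancer drives Bcl2, which counters apoptosis, in B lineage cells) and held for 48 hours in 3 μM STI-571 (imatinib), which blocks the Abl kinase and arrests the cells in G1. Each group held the same 3 independently derived lines, numbered 1 to 3 by replicate, with 1 array per line and dose. The spread between replicates is thus that between lines, and differences from culture, RNA preparation and array are part of it. The methods list a line named Atm2A among the 3 WT lines, and the labels do not say which replicate it is. All 3 lines had Atm signals of 1308 or more at 0 Gy. The ages of the mice of origin are not given in the sources used here, and the cells are transformed and arrested, so that dividing or primary pre-B cells were not measured.

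A double strand break is recognised by the MRE11-RAD50-NBS1 complex, which recruits and activates the kinase ATM. ATM phosphorylates the histone variant H2AX beside the break, MDC1 binds that mark, and the ubiquitin ligases RNF8 and RNF168 then modify the chromatin so that 53BP1 (encoded by Trp53bp1) can bind. ATM also activates the checkpoint kinase CHK2, whereas the related kinase ATR, which responds to single stranded DNA, acts mainly through CHK1. In developing B cells the same pathway attends to the breaks that the RAG endonuclease makes during V(D)J recombination. Most of this signalling runs through protein modification, and the arrays measured only the mRNA of these genes.

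All 11 measured pre-B cell markers, among them Cd79a, Vpreb1, Igll1, Pax5 and Rag1, reached 100 on all 6 arrays, with summed signals of 102467 to 140382 after 1 Gy and 135583 to 143236 at 0 Gy. Of these 11, Rag1 (4507 to 5674 after 1 Gy, 13333 to 18772 at 0 Gy), Rag2 (234 to 355, against 1105 to 1862) and Cd93 (8234 to 16642, against 17595 to 22604) were lower after 1 Gy without overlap. Of all 21762 tested probe sets, 17.1% were lower after 1 Gy without overlap. None of the 6 T cell, 3 erythroid and 5 stromal markers reached 100 on any array. Of 6 myeloid markers, Itgam alone was at 100 or above (130.1 to 342), and the summed signal of that list was 359 to 472 after 1 Gy and 255 to 330.0 at 0 Gy. The sum of 4 plasma cell markers was 19682 to 23279 after 1 Gy and 11116 to 12453 at 0 Gy, carried by Irf4 (18158 to 22347, against 10063 to 10684). The other plasma cell markers did not share that direction, since the mean signal of Sdc1 was 190 after 1 Gy and 305 at 0 Gy, Prdm1 was mixed over the lines, and Jchain stayed below 100 (44.4 to 57.4, against 71.9 to 95.3). RNA quality was read from the beta-actin control probe sets, whose 3' signal was 1.26 to 1.38 times the 5' signal after 1 Gy and at least 1.40 times at 0 Gy. For the Gapdh controls the ratios of the 3 irradiated arrays (0.785 and above) all lay within the range of 0.768 to 0.900 at 0 Gy. Between 41.7% and 43.8% of probe sets reached a signal of 100 on an array. The part of these differences in the results below was not tested. With 3 arrays a dose, precision is limited by their number.

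Atm mRNA was more than 3-fold lower after 1 Gy than at 0 Gy by both of its probe sets, and was lower in all 3 lines. On probe set 1421205_at, the brighter of the pair, the irradiated lines gave signals of 415, 797 and 447 (replicates 1, 2 and 3), against 1405, 1941 and 1577 in the same lines at 0 Gy. The highest irradiated signal, that of line 2, lay below the lowest mock signal, and line 2 was the highest line at both doses. The mean was 553 ± 212 after 1 Gy and 1641 ± 274 at 0 Gy (SD, n = 3 lines), a fall of 3.08-fold by the mean log2 values (log2 fold change -1.62, standard error 0.29, 95% interval -2.34 to -0.90, adjusted p = 0.0424 from limma). On probe set 1428830_at the irradiated lines gave 451, 622 and 347, against 1308, 1853 and 1351 at 0 Gy, again with no overlap and with line 2 highest. The means were 473 ± 139 after 1 Gy and 1504 ± 303 at 0 Gy, a fall of 3.23-fold (log2 fold change -1.69, standard error 0.27, 95% interval -2.34 to -1.04, adjusted p = 0.0341 from limma). RNA was taken from whole cultures, so that fewer cells with Atm mRNA and less Atm mRNA per cell cannot be told apart.

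The share of probe sets that passed the test gives the scale for this result. Of 21762 probe sets tested, 4.48% passed at an adjusted p under 0.05 (limma), 1.93% higher and 2.55% lower after 1 Gy (419 and 556 probe sets, against 366 and 274 once arrays shared a common median and 500 and 458 after quantile normalization). Among the 19 tested probe sets of the 10 genes, 2 passed, both of Atm and both lower, and 0 were higher (0 higher and 3 lower at an unadjusted p under 0.05, beside 9.28% and 13.7% of all tested probe sets). With the cell line as a block, that is with each line compared with itself, 18.3% of all probe sets passed (6.78% higher and 11.5% lower), and of the 19 again 2 passed, the same Atm probe sets (adjusted p of 0.0128 for 1421205_at and 0.0113 for 1428830_at, limma). Of all tested probe sets, 1.31% had a log2 fold change as low as that of 1421205_at or lower, and 1.11% as low as that of 1428830_at. By brightest probe set, 147 of 9664 named genes, Atm included, fell at least as far. With any 1 of the 6 arrays left out, the log2 fold change of 1421205_at stayed between -1.92 and -1.45 and that of 1428830_at between -1.91 and -1.49. Neither then passed (adjusted p of 0.0653 to 0.143 and of 0.0762 to 0.119 from limma, unadjusted p of 2.29e-04 to 0.00692 and of 5.68e-04 to 0.00386), while 0 to 120 of all probe sets did. With all arrays brought to the same median the adjusted p of 1421205_at was 0.0611 (limma), and without the filter on dim probe sets those of both exceeded 0.05 (0.190 and 0.167), where 1 probe set on the array passed.

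The 2 Atm probe sets were compared with each other, since probe sets of a gene can report different transcript ends. Their log2 fold changes differed by 0.07 (1421205_at minus 1428830_at), with differences of -0.22, 0.29 and 0.14 in lines 1, 2 and 3. This was within the spread between lines (SD 0.26, exact permutation test, two-sided, p = 0.8, where the smallest p for 3 arrays against 3 is 0.1). In line 2 the fall was smaller on 1421205_at (log2 difference -1.28) than on 1428830_at (-1.57), and in line 1 it was larger (-1.76 and -1.54).

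Atm lies head to head with Npat, a gene needed for histone gene transcription at the start of S phase, and the promoter sequences of both are shown because the stretch between the 2 genes is common to them. The start sites lie 376 bases apart on chromosome 9. Given here are the 250 bases before each start in GRCm38.p6 (RefSeq), at chr9:53536672-53536921 on the minus strand for Atm and at chr9:53536797-53537046 on the plus strand for Npat, 5' to 3'. Capitals mark the 125 bases that both windows hold, read on opposite strands.
Atm: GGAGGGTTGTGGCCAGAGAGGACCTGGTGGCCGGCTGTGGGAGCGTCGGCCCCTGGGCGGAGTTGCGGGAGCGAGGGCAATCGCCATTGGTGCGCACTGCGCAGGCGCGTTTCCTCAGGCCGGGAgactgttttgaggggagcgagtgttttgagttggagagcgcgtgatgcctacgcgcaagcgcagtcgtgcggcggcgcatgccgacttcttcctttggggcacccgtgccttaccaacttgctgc
Npat: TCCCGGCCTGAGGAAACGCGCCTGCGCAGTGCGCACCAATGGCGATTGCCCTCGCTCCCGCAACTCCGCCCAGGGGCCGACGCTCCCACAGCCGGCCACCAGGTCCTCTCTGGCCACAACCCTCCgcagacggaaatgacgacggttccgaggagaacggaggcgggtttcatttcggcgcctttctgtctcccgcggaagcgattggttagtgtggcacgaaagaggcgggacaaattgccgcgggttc
The shared stretch holds 1 CCAAT box (CCAAT or its reverse complement ATTGG) and 1 GC box (GGGCGG or CCGCCC), which do not overlap. They begin 165 and 196 bases before the Atm start, and 215 and 185 bases before the Npat start. The Npat window holds another CCAAT box outside the shared stretch, 47 bases before its start. Neither window holds a TATA box (TATAAA or TTTATA). Of 32851 promoter windows of 250 bases, 33.8% hold a CCAAT box, 32.7% a GC box and 12.4% a TATA box on either strand. In the outermost 125 bases of those windows, the length of the shared stretch, 16.8% hold a CCAAT box and 13.4% a GC box. Such matches are thus not particular to these 2 genes. The windows of Atm and Npat are 66.0% and 65.2% G or C, against a median of 52.4% over all windows. The sequence table has a promoter for 8 of the 10 genes, all but Nbn and Rad50.

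Npat did not pass the test, and its signals overlapped between the doses. Its brighter probe set, 1456485_at, gave signals of 719, 893 and 715 after 1 Gy, against 663, 986 and 773 at 0 Gy. Line 1 was higher after 1 Gy while lines 2 and 3 were lower. The log2 fold change was -0.046 (standard error 0.20, limma adjusted p = 0.924), and its 95% interval of -0.54 to 0.44 does not reach a fall of 1 log2 unit. The dimmer probe set, 1459185_at, gave 193, 229 and 229 after 1 Gy, against 211, 155 and 227 at 0 Gy (log2 fold change 0.15). The change of Atm was lower than that of Npat by 1.87, 1.14 and 1.71 log2 units in lines 1, 2 and 3, a mean difference of -1.57 (p = 0.1 by the two-sided exact permutation test, which cannot go lower with 3 arrays against 3).

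**Figure D1:**
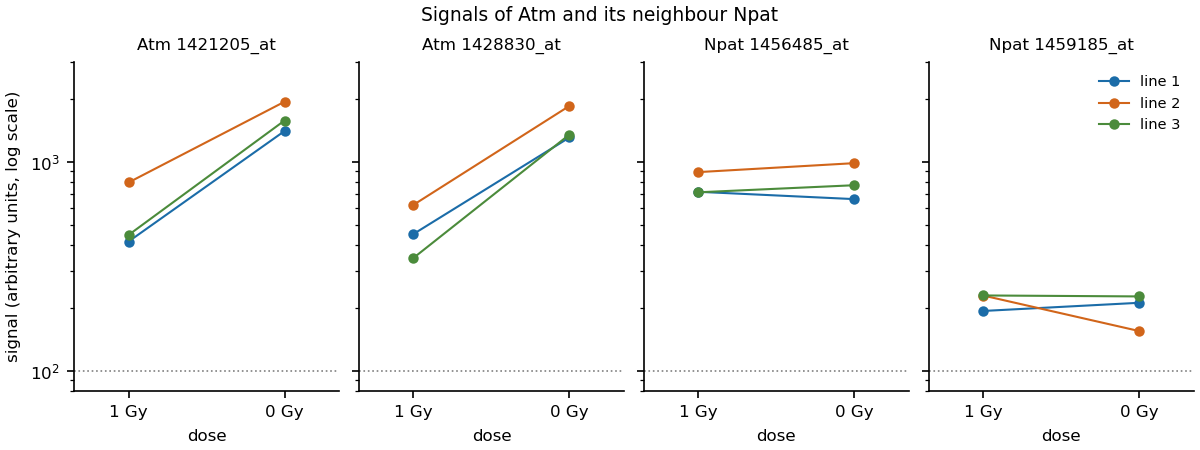
Signals of the 2 probe sets of Atm and the 2 of Npat (vertical axis, log scale, arbitrary units, with 100 dotted) after 1 Gy and at 0 Gy (horizontal axis), where each connected pair of points is 1 cell line. Both Atm panels show all 3 lines lower after 1 Gy, with 1 Gy signals of 347 to 797 and 0 Gy signals of 1308 to 1941, and the Npat signals of the groups overlap.

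Atr, which encodes the kinase related to ATM, did not pass the test on either tested probe set. Probe set 1427197_at gave signals of 1042, 1204 and 1190.1 after 1 Gy, against 1018, 994 and 1199 at 0 Gy. The groups overlapped and no line moved by more than 0.28 log2 units (log2 fold change 0.10, standard error 0.15, 95% interval -0.26 to 0.46, adjusted p = 0.744 from limma). A second Atr probe set, 1445091_at, gave 485, 511 and 352, against 353, 306 and 340.4 at 0 Gy, with lines 1 and 2 higher after 1 Gy and line 3 nearly level. Its log2 fold change of 0.42 did not pass the test (standard error 0.19, limma adjusted p = 0.259, and 0.161 with the block). The Atr probe set below 100 had means of 75.3 after 1 Gy and 76.4 at 0 Gy.

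The 2 genes of the break-recognition complex had values on opposite sides of 0, and neither passed the test. Nbn, the subunit that recruits ATM, gave signals of 377, 396 and 314 after 1 Gy, against 355, 310.1 and 166 at 0 Gy. All 3 lines were higher after 1 Gy, line 3 by 0.91 log2 units and line 1 by 0.085, and the groups overlapped (log2 fold change 0.45, standard error 0.31, 95% interval -0.31 to 1.21, adjusted p = 0.454 from limma). Without the mock array of line 3, which holds the lowest signal, the log2 fold change was 0.12. Rad50, the ATPase that tethers DNA ends, gave 2114, 1743 and 2704, against 2602, 2919 and 3223 at 0 Gy. All 3 lines were lower after 1 Gy, with overlap between the groups because line 3 was highest at both doses. Its log2 fold change was -0.43 (standard error 0.20, 95% interval -0.93 to 0.07, adjusted p = 0.276 from limma, and 0.116 with the block).

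Both chromatin mediators had lower values after 1 Gy that did not pass the test. Mdc1, which binds phosphorylated H2AX, gave signals of 334, 286 and 319 after 1 Gy, against 379, 419 and 643 at 0 Gy. The groups did not overlap, and the mock array of line 3 stood above the others. Mdc1 was the lowest of the 9 genes other than Atm, with a log2 fold change of -0.58 (standard error 0.23, 95% interval -1.15 to -0.02, unadjusted p = 0.0455, adjusted p = 0.207 from limma), which was -0.35 without that array. Trp53bp1 has 6 probe sets, more than any other of the 10 genes. The brightest, 1426956_a_at, gave 3915, 3346 and 3708 after 1 Gy, against 4569.9, 3882 and 4524 at 0 Gy. The lines moved almost alike, by -0.22, -0.21 and -0.29 log2 units (log2 fold change -0.24, standard error 0.14, 95% interval -0.59 to 0.11, adjusted p = 0.380 from limma, and 0.191 with the block). The next probe set, 1426957_at, gave 809, 787 and 612, against 994, 818 and 855, with no overlap (log2 fold change -0.28, adjusted p = 0.399 from limma). Probe sets 1435609_at and 1446100_at lay between 118 and 222 on all 6 arrays, with log2 fold changes of -0.31 and 0.087.

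The remaining 2 probe sets of Trp53bp1 separated the lines and not the doses. Probe set 1457812_at gave signals of 9.19, 1.25 and 154 after 1 Gy, against 1.69, 11.4 and 155 at 0 Gy. Probe set 1442316_x_at gave 2.19, 8.82 and 104, against 11.5, 3.46 and 139. In both, line 3 alone was above 100 at either dose and lines 1 and 2 stayed below 12, a difference between lines that the bright Trp53bp1 probe sets did not show. Whether the line 3 signal of these 2 probe sets came from Trp53bp1 transcripts was not tested. With lines 1 and 2 at background, their log2 fold changes (-0.25 and -0.49) had standard errors of 2.27 and 1.86 and carry little information on the dose.

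The ubiquitin ligases also lay on either side of 0. Rnf8, which MDC1 recruits, gave signals of 1198, 1264 and 1271 after 1 Gy, against 939, 1096 and 1085 at 0 Gy. Every irradiated signal was above every mock signal. Compared with its own mock array, the signal was higher by 0.35, 0.21 and 0.23 log2 units in lines 1, 2 and 3. The log2 fold change of 0.26 did not pass the test (standard error 0.13, 95% interval -0.06 to 0.59, adjusted p = 0.309 from limma, and 0.173 with the block). Rnf168, which extends the ubiquitin mark on histone H2A, gave 619.6, 709 and 463 on its brighter probe set 1455585_at, against 805, 842 and 651. All 3 lines were lower after 1 Gy and the groups overlapped (log2 fold change -0.37, standard error 0.21, 95% interval -0.89 to 0.14, adjusted p = 0.361 from limma, and 0.0977 with the block). Its dimmer probe set, 1455586_at, gave 127, 202 and 73.2, against 198, 91.5 and 70.5, with the lines going both ways (log2 fold change 0.19, standard error 0.52).

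The checkpoint kinase genes had low signals and no common direction over the lines. Chek1, mainly a substrate of ATR, gave 215, 131 and 145 after 1 Gy on its brightest probe set 1449708_s_at, against 281, 101 and 167 at 0 Gy. Lines 1 and 3 were lower and line 2 was higher after 1 Gy, and line 1 was highest at both doses (log2 fold change -0.07, standard error 0.41, 95% interval -1.08 to 0.94, adjusted p = 0.945 from limma, with a sign that turned after quantile normalization). The ending of its name marks a probe set that can bind transcripts of more than 1 gene. A further Chek1 probe set, 1450677_at, reached 100 on a single array, the mock array of line 1 (129), and gave 48.6 to 73.2 on the other 5. Chek2, mainly a substrate of ATM, gave 199, 259.7 and 219, against 296, 252 and 259. Lines 1 and 3 were lower after 1 Gy and line 2 was nearly level (log2 fold change -0.26, standard error 0.16, 95% interval -0.65 to 0.13, adjusted p = 0.402 from limma).

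**Figure D2:**
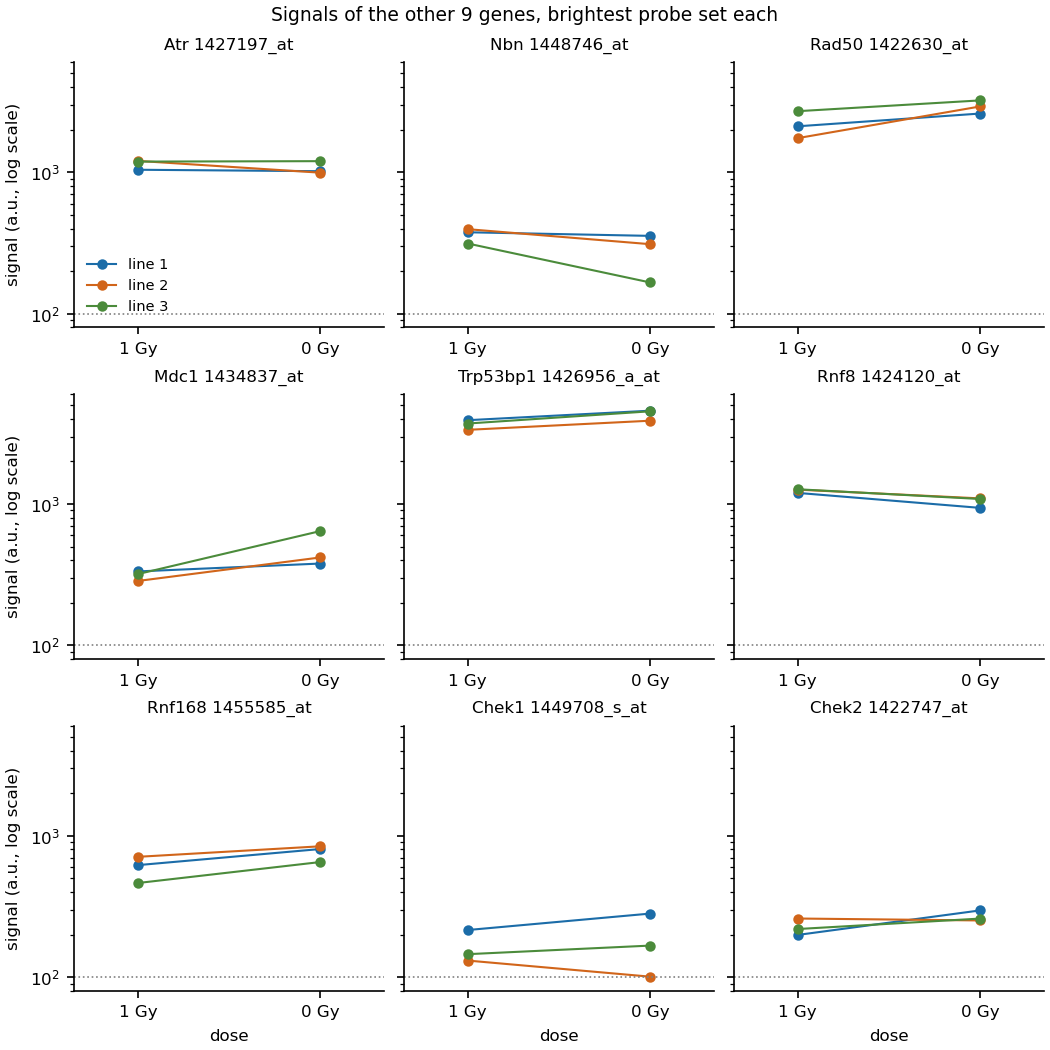
Signals of the 9 genes other than Atm, each by its brightest probe set (vertical axes, log scale shared by all panels, arbitrary units, with 100 dotted), after 1 Gy and at 0 Gy (horizontal axes), where each connected pair of points is 1 cell line. Groups do not overlap in the panels of Mdc1 (lower after 1 Gy) and Rnf8 (higher after 1 Gy), and overlap in the other 7.

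The fall of Atm was set against the change of each of the other 9 genes. By brightest probe set, their log2 fold changes ran between -0.58 (Mdc1) and 0.45 (Nbn), with a median of -0.24, beside a median of -0.11 over 9664 genes taken the same way. In 3 of 3 lines Atm changed further downward than each of the 9, with mean differences of -1.04 (against Mdc1) to -2.07 (against Nbn). The smallest difference in any line was -0.54, against Rad50 in line 2. For 7 of the 9 the exact permutation test gave p = 0.1, the smallest possible for 3 arrays against 3 (two-sided, 0.129 after Benjamini-Hochberg adjustment over the 9 comparisons), and for Mdc1 and Chek1 it gave 0.2. With 3 arrays against 3, this test cannot reach an adjusted p under 0.05. It also splits the arrays without regard to line. Within lines, the difference from Chek1 was -1.37, -1.66 and -1.62, with an SD of 0.157, and that from Mdc1 was -1.57, -0.73 and -0.81, with an SD of 0.464. Without the block, the 95% intervals of 6 of the 9 genes lay within 1 log2 unit on either side of 0. Those of Mdc1, Nbn and Chek1 passed that bound. With the block, the intervals of Nbn (-0.066 to 0.967) and Chek1 (-0.57 to 0.43) lay within it. That of Mdc1 (-1.09 to -0.07) still passed it. Over all 19 tested probe sets, groups did not overlap in 4 that were lower after 1 Gy (both of Atm, Mdc1 and Trp53bp1 1426957_at) and in 1 that was higher (Rnf8), beside 17.1% and 12.8% of all tested probe sets (29.9% in either direction). In 3 of 3 lines, 8 were lower and 3 were higher, beside 34.5% and 24.7% of all tested probe sets.

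**Figure D3:**
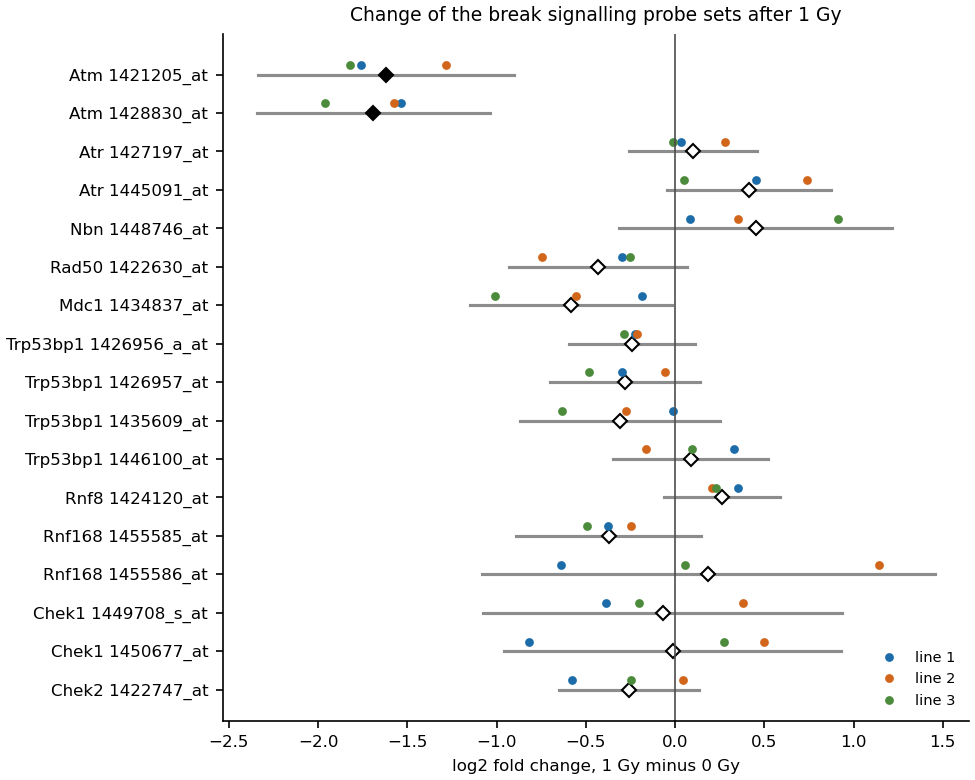
Log2 fold change, 1 Gy minus 0 Gy (horizontal axis), of 17 tested probe sets of the 10 genes (rows). Diamonds are the limma estimates with their 95% intervals as bars, filled where the adjusted p was under 0.05, and coloured points are the differences within each of the 3 lines. Both filled diamonds are those of Atm, at -1.62 and -1.69, and the 2 Trp53bp1 probe sets at background in lines 1 and 2 are not drawn.

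Around these 10 genes, 88 further genes of break signalling were listed by role, of which 79 were tested, each by its brightest probe set. The share of them that changed was near that of all genes. By limma, 2 rose and 2 fell, which is 5.06% of 79, beside 5.36% of 9664 genes taken by their brightest probe set (2.12% higher and 3.24% lower), and the median log2 fold change was -0.04, beside -0.11 over those genes. Before adjustment 5 were higher and 11 lower with p under 0.05, beside 8.39% and 16.7% of the 9664 genes. With the cell line as a block, 7 rose and 9 fell (20.3%, beside 21.4% of the 9664 genes, 6.63% higher and 14.7% lower). By role, 46.2% of 13 effectors, 28.6% of 14 sensor and clamp genes and 27.3% of 11 chromatin mediators passed with the block. So did 10.0% of 10 phosphatase genes, 9.09% of 22 genes of the ubiquitin and SUMO branch and 0% of 9 PI3K-like kinase and chaperone genes. Each role holds few genes, and these shares were not tested against that of all genes. With any 1 array left out 0 passed in either direction by limma, and 3 to 6 were higher and 6 to 12 lower at an unadjusted p under 0.05.

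Among the chromatin mediators, 0 of 11 rose and 1 fell, beside 2.12% and 3.24% of the 9664 genes. With the block 3 fell, adding Brca1 and Pagr1a (27.3%, beside 14.7% of the 9664 genes). All 11 had log2 fold changes below 0, with a median of -0.62. The median over the 9664 genes was -0.11, so that most genes were below 0 too. Not all 11 fell alike over the lines, as these genes, named after their values were seen, show. The falls of H2ax, Tipin and Timeless were largest in line 1 (log2 differences of -1.33, -1.18 and -1.49). Clspn, which reached 100 on 3 arrays, and Smc1a (log2 fold change -0.033) were higher after 1 Gy in line 3. The mediator that passed both tests was Rif1, which acts downstream of 53BP1 to protect DNA ends. Rif1 gave signals of 956, 1133 and 764 after 1 Gy, against 2361, 2089 and 1872 at 0 Gy. No irradiated signal reached the lowest mock signal (log2 fold change -1.16, standard error 0.20, limma adjusted p = 0.0375). The other 3 probe sets of Rif1 had log2 fold changes of -0.98, -0.74 and -0.76 that did not pass (adjusted p of 0.185 to 0.523 from limma). With the block 2 of these 3 passed, the first and the last (limma adjusted p = 0.0374 and 0.0469), and the other had 0.0503. In the ubiquitin and SUMO branch, 0 of 22 rose and 1 fell, again beside 2.12% and 3.24% of the 9664 genes. The median log2 fold change was 0.01. Rnf169 rose besides with the block (9.09% called, beside 21.4% of the 9664 genes). The gene that fell was Abraxas1, the scaffold of a BRCA1 complex that binds ubiquitin at breaks. Abraxas1 gave 258, 256 and 253 after 1 Gy, against 413, 408 and 493 at 0 Gy, with little spread among the irradiated lines (a log2 difference of -0.77, adjusted p = 0.0414 from limma). Its other probe set was at -0.60 on the log2 scale, with an adjusted p of 0.126.

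The genes that rose were a phosphatase gene and an effector. Among 10 phosphatase genes, with a median log2 fold change of 0.20, 1 rose and 0 fell, beside 2.12% and 3.24% of the 9664 genes. The one that rose was Ppp4r2, a regulatory subunit of protein phosphatase 4, which removes phosphate from H2AX. Ppp4r2 gave 13772, 12728 and 17563 after 1 Gy, against 7314, 8419 and 7847 at 0 Gy, without overlap (log2 fold change 0.89, standard error 0.17, limma adjusted p = 0.0474). Its dimmer probe set was at 0.73 on the log2 scale (adjusted p = 0.435, and 0.0305 with the block, limma). Among 13 effectors, with a median of 0.30, 1 rose and 0 fell, beside the same shares of all genes. With the block 5 rose and 1 fell (46.2%, beside 21.4% of the 9664 genes). The one that passed both tests was Wee1, which holds cyclin-dependent kinases inactive. Its brighter probe set gave 2053, 1913 and 1284 after 1 Gy, against 666, 434 and 512 at 0 Gy. Both of its probe sets passed, with log2 fold changes of 1.70 and 1.36 (adjusted p of 0.0317 and 0.0393 from limma). The effectors that passed only with the block, given here after their values were seen, were Cdc25b, Cdkn1a, Mdm2, Mapkapk2 and Plk3. Cdc25b, a phosphatase that activates cyclin-dependent kinases, gave 789, 399 and 1000.1 after 1 Gy, against 1970.2, 2480 and 4042 at 0 Gy. Its log2 fold change of -1.99 was lower than that of Atm (adjusted p of 0.0606 and, with the block, 0.0191 from limma), and the difference between them was not tested. Cdkn1a, an inhibitor of those kinases, was at 1.23 on the log2 scale (adjusted p of 0.165 and, with the block, 0.0161), Mdm2, a ubiquitin ligase, at 0.66 (0.0506 and 0.0317), and Mapkapk2 at 0.54 (0.258 and 0.0381). Plk3, a stress-responsive kinase, gave 25.1, 71.8 and 130 after 1 Gy and 6.35 to 12.8 at 0 Gy, so that its log2 fold change of 2.67 rests on signals that reached 100 on 1 array.

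Sensors and the clamp that ATR signalling uses gave 0 of 14 called in either direction by limma, beside 5.36% of the 9664 genes. At an unadjusted limma p under 0.05, 0 were higher and 5 lower, beside 8.39% and 16.7% of those genes. The median log2 fold change was -0.45. With the block 4 were lower (28.6%, beside 14.7% of the 9664 genes). These 4, chosen here after their values were seen, were Atmin, a cofactor of ATM, and Rfc2, Rfc4 and Rfc5, subunits of the loader that places the clamp on DNA. Atmin gave 178, 182 and 145 after 1 Gy, against 251, 268 and 219 at 0 Gy (log2 fold change -0.55, adjusted p of 0.118 and, with the block, 0.0386 from limma). Rfc2 had nearly the same log2 difference in each line, -0.90, -0.92 and -0.91 (adjusted p of 0.0650 and, with the block, 0.0164 from limma). Rfc4 and Rfc5 had log2 fold changes of -0.90 and -0.94, and their groups overlapped (adjusted p of 0.260 and 0.217 and, with the block, 0.0241 and 0.0161 from limma). Line 1 was the highest line at both doses for Rfc2, Rfc4 and Rfc5. Of 9 PI3K-like kinase and chaperone genes, 0 passed in either direction with or without the block (limma), beside 21.4% and 5.36% of the 9664 genes. At an unadjusted limma p under 0.05, 0 were higher and 1 was lower. The gene, also named after its value was seen, was Prkdc, the DNA-dependent protein kinase of end joining, at -0.44 on the log2 scale (adjusted p of 0.127 and, with the block, 0.0867 from limma). Mre11a, the third subunit of the break-recognition complex, gave 483, 609 and 606 after 1 Gy, against 524, 558 and 439 at 0 Gy (log2 fold change 0.16, adjusted p = 0.646 from limma).

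**Figure D4:**
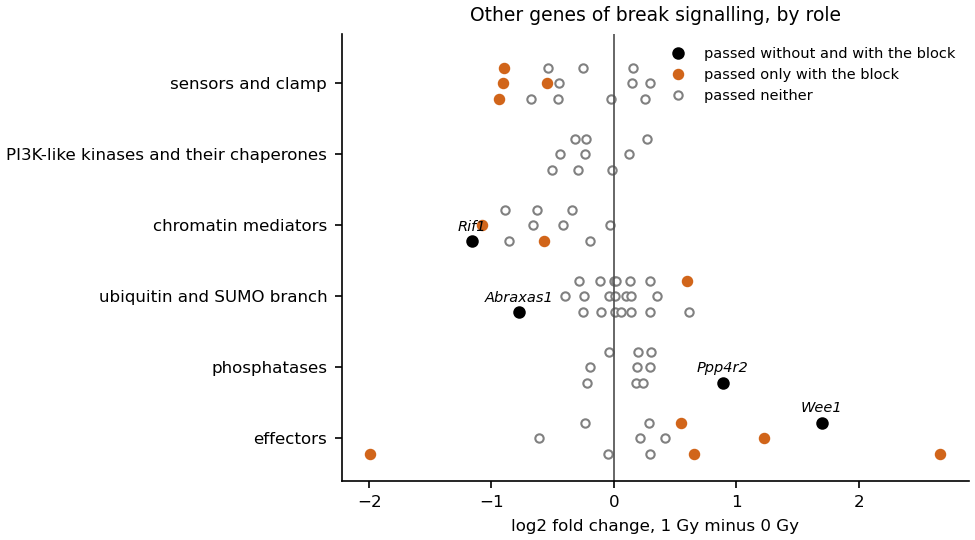
Log2 fold change, 1 Gy minus 0 Gy (horizontal axis), of 79 other break signalling genes by role (rows), 1 point per gene. Black points passed limma's test with and without the cell line as a block (Rif1 and Abraxas1 lower, Ppp4r2 and Wee1 higher), orange points passed only with the block, and open points passed neither.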

How the data were processed

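The authors deposited linear signal intensities per probe set of the Affymetrix Mouse 430 2.0 array, computed with MAS5 by the submitters' processing notes. On every array the mean is 500 once the 2% lowest and 2% highest values are set aside. The study's methods describe RMA and quantile normalization, which these values do not carry. No detection flags were used. Signals under 1 were set to 1 and log2 values taken. After leaving out 64 control probe sets, the 21762 that reached 100 on any array were tested with limma (version 3.58.1, R 4.3.3) on dose alone, with Benjamini-Hochberg adjustment over all of them. Gene names came from the platform annotation. All 24 probe sets carry the current RefSeq symbol.

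The design text gives each cell line both doses. Same-numbered arrays deviated together from their group means (correlations of 0.668 to 0.781), and other pairs did not (-0.495 to -0.053). Deviations cancel out within a group, so that the negative values follow from the positive ones and are no separate evidence. The numbers were therefore taken as pairs, and a blocked fit was added. Named were all 10 genes, Npat, up to 3 called partner genes per role, and the 5 genes most like Atm. Mre11a, Prkdc, H2ax, Tipin, Timeless, Clspn, Smc1a and the genes that passed only with the block were added after their values were seen. Genes and lists were chosen with earlier results of these data known. The fits were tested on simulated data. Alternatives were the block, other filters, scalings, floors and priors, the methods' test, and each array left out.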

Additional observations from a re-analysis of the deposited data

How the results depend on the processing

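Both Atm probe sets kept their direction under all 16 alternatives. The log2 fold change of 1421205_at no longer passed without the filter on dim probe sets (-1.62, adjusted p = 0.190 from limma), after scaling to a common median (-1.57, 0.0611) and by the methods' test after Benjamini-Hochberg adjustment (-1.62, 0.103). That of 1428830_at no longer passed without the filter (-1.69, 0.167) and by the methods' test after adjustment (-1.69, 0.0832). Hence the count of lower probe sets, 2, was 0 without the filter, 1 after median scaling and 0 by the methods' test after adjustment. With 1 array left out (leave-one-out), neither passed, at -1.92 to -1.45 and -1.91 to -1.49, and the count was 0. The replicate block changed none of the calls on the 10 genes, with 2 lower and 0 higher.

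The partner genes that rose numbered 7 and those that fell 9 with the replicate block, against 2 and 2. They numbered 0 and 0 without the filter (where limma's unadjusted p was under 0.05 for 5 and 6), 1 and 1 after median scaling, 4 and 4 by the methods' test at its own thresholds, and 1 and 0 by that test after adjustment. Those that fell numbered 4 with a minimum of 100 on 3 arrays, 1 after quantile normalization and 4 with a trend in the prior. With 1 array left out both counts were 0, and 0 to 120 of all probe sets passed. Over all probe sets the calls moved too, from 975 of 21762 in the main fit to 3974 with the block. They numbered 1 of 45037 without the filter and 640 after median scaling. By the methods' test they numbered 2850 at its own thresholds and 352 after adjustment. Probe sets that fell numbered 556 in the main fit, 770 with a minimum of 100 on 3 arrays, 458 after quantile normalization and 825 with a trend. The cause was not tested.

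Some values near 0 changed sign. After quantile normalization, Chek1 was at 0.041 (1449708_s_at) and 0.052 (1450677_at), and Npat at 0.027. After median scaling, 1450677_at was at 0.035 and Npat at 0.0029. With 1 array left out, log2 fold changes ran between -0.011 and 0.20 (Trp53bp1 1446100_at), -2.09 and 1.46 (Trp53bp1 1457812_at), -2.01 and 1.00 (Trp53bp1 1442316_x_at), -0.17 and 0.62 (Rnf168 1455586_at), -0.44 and 0.30 (Chek1 1449708_s_at), -0.27 and 0.024 (Chek1 1450677_at), and -0.18 and 0.11 (Npat). Signals near 100 limit what can be said of Chek1, Chek2 and the dim probe sets.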

Other observations

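The 5 genes whose pattern over the 6 arrays was most like that of Atm were Fbxo32, Agfg2, Ogfrl1, S1pr1 and Elk3. Likeness was the root mean square difference between log2 signals, each centred on its own mean, from Atm probe set 1421205_at to the brightest probe set of 9146 other genes. It was 0.10 for Fbxo32 and 0.16 for Elk3, and 0.17 for the second probe set of Atm itself, so that these genes lay as close to the brighter Atm probe set as the gene's own other probe set. The arrays share their 3 lines, and the genes were chosen for this pattern, so that their values are a description. Fbxo32, a ubiquitin ligase subunit, gave signals of 115, 184 and 113 after 1 Gy, against 391, 502 and 452 at 0 Gy. S1pr1, a receptor for sphingosine 1-phosphate, gave 518, 944 and 547, against 1367, 2186 and 1477. Line 2 was the highest line at both doses for each of them, as it was for Atm. The log2 fold changes of the 5 genes ran between -1.74 and -1.35.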
